A study of Homo sapiens with 36 samples.

Results

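The 42 genes described here encode proteins of DNA repair and of the damage checkpoint, and were taken by symbol from the 60623 human gene rows of an RNA-seq count table. They are 4 mismatch repair genes, the direct reversal gene MGMT, 15 homologous recombination genes, 3 Fanconi anaemia genes, 7 nucleotide excision repair genes, 2 genes of base excision and single-strand break repair, 6 end joining genes and 4 checkpoint kinase genes. All 42 rows were found and all 42 passed the filter on low counts. The table holds 36 libraries of polyadenylated RNA from 7 established human T cell lines. Libraries labelled GATA-3 knock down are from cells that carry a hairpin to GATA3 (shGATA3), and libraries labelled WT, called controls here, are from cells with a scramble hairpin. The labels call 3 lines cutaneous T lymphocytes (the CTCL class): H9 with 3 knockdown and 2 control libraries, MylaCD4+ (MyLa) with 3 and 3, and Mac1 with 2 and 2. The other 4 lines are labelled acute lymphoblastic leukaemia (the T-ALL class): SUP-T1 with 3 and 3, CCRF-CEM with 3 and 3, MOLT4 with 2 and 2, and THP6 with 2 knockdown and 3 control libraries. Each model is a transformed line, and the labels do not say whether replicates were separate cultures or carried the same hairpin, so the p-values reflect the scatter of these libraries alone, which could be technical.

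Mismatch repair removes replication errors: MSH6 and MSH3 each form a sensor that reads mismatches or small loops, PMS2 belongs to the complex that nicks the new strand, and EXO1 is the exonuclease that removes it. Double-strand breaks are sealed by end joining, which uses the Ku proteins and the kinase DNA-PKcs, or copied from the sister chromatid by homologous recombination. In developing lymphocytes end joining also completes the rearrangement of antigen receptor genes, and defects of mismatch repair and of ATM are known from human lymphoid malignancies.

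GATA3, the transcription factor the hairpin targets, was lower in all knockdown than in all control libraries of 6 lines. Its level averaged 62.2 CPM (read counts brought to a common library total with TMM factors) in knockdown and 148 in control libraries of H9, 151 and 248 in MyLa, and 40.8 and 90.3 in Mac1. It averaged 44.2 and 86.3 CPM in CCRF-CEM, 23.6 and 64.7 in MOLT4, and 64.6 and 135 in THP6. In SUP-T1 it went the other way, with 81.7 CPM in the libraries labelled knockdown and 24.1 in the libraries labelled control, so SUP-T1 directions below are those of the labels. Library totals ran from 18.62 M to 50.63 M counts. THP6 knockdown 2 stood apart, with a correlation of 0.981 to THP6 knockdown 1, against at least 0.994 between all other replicates. In means over the knockdown and control libraries of a line, Mac1 had 0 CPM of the T cell receptor genes CD3D, CD3E and CD3G. On the same scale MyLa had 0.345 CPM of CD3E, while the T cell kinase gene ZAP70 was at 162 to 313 CPM in all 7 lines. Some markers of other cell types were also present, such as CD79A at 211 CPM in H9 and COL1A1 at 104 CPM in MyLa, and their part in the results was not tested.

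In control libraries the repair genes were expressed in all 7 lines, with 1 exception. For 41 of 42 members the control mean was at least 5 CPM in every line, and MGMT was the member that fell under it. Between the highest and the lowest line the members differed by a median of 2.57-fold, beside 2.83-fold for the 10522 genes with a median over lines of at least 5 CPM. The difference was over 2-fold in 30 members (71.4%), beside 78.4% of those genes. The flattest member was RAD51C, a gene of homologous recombination, at 49.0 CPM in SUP-T1 to 63.9 in MyLa. On the scale of CPM per kilobase of annotated exon the highest medians over lines were those of the Ku genes XRCC6 (196) and XRCC5 (107) and of the break sensor PARP1 (69.6). The lowest on that scale were those of the kinase ATM (1.49), of BRCA2, a mediator of homologous recombination (2.02), and of the nuclease gene ERCC4 (2.08).

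**Figure D1:**
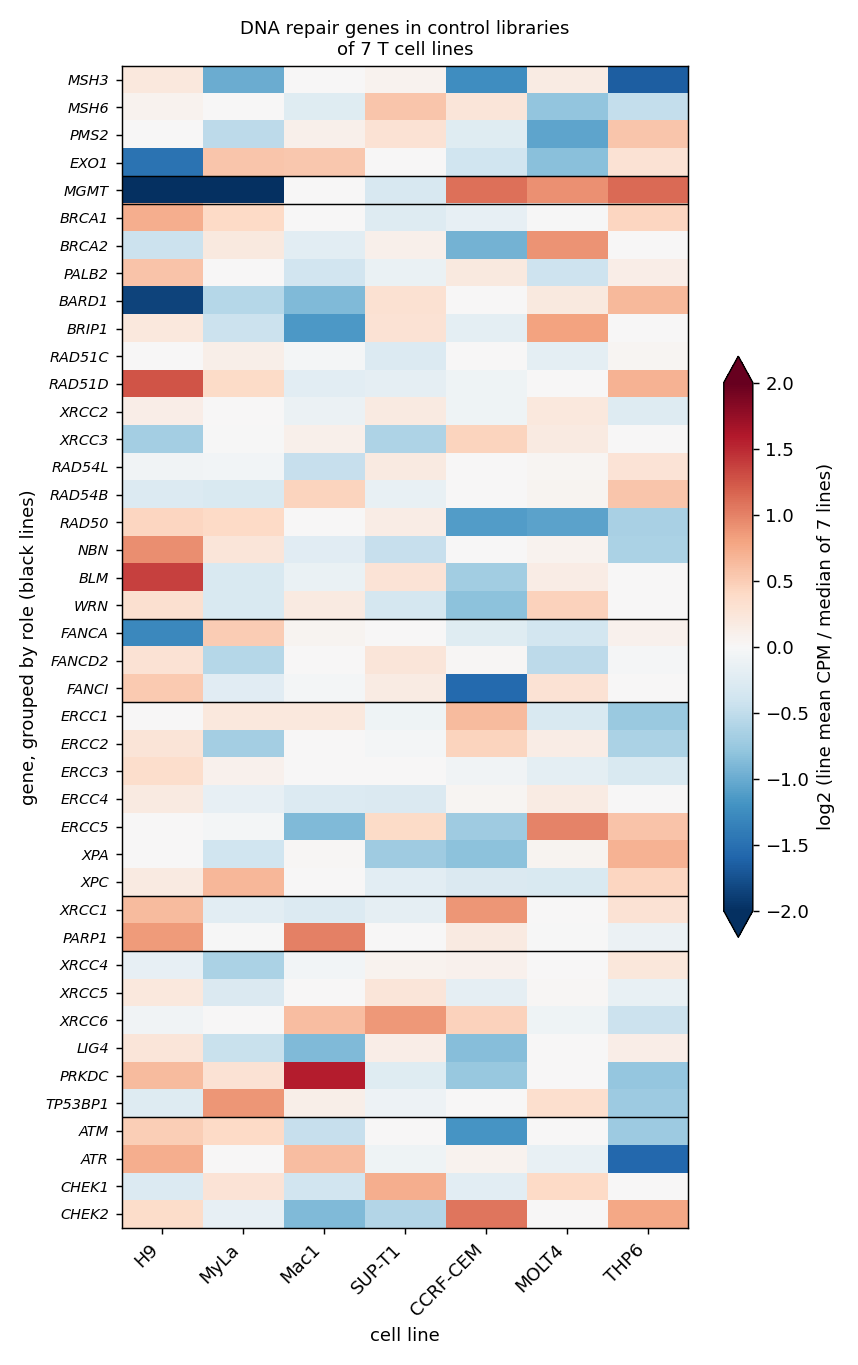
Levels of the 42 members in control libraries, as log2 of the line's mean CPM over the median of the 7 line means; rows are genes grouped by role, columns are lines, and colours end at -2 and 2. MGMT in MyLa, at 0.0254 CPM, lies far past the end of the colour scale.

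Loss in a single line was looked for with a fixed rule, which took members whose lowest line was more than 2-fold under the next-lowest. It was met by 3 members (7.14%), beside 16.1% of the genes at 5 CPM, and those members were MGMT, ATR and FANCI. A highest line more than 2-fold over the next-highest was found for 1 member (2.38%), BLM, beside 7.22% of those genes. A control mean under 1 CPM was seen for MGMT alone among members, beside 10.3% of those genes. The mismatch repair genes of the list met none of the 3 criteria. Just outside the rule lay BARD1, whose H9 level was 1.95-fold under the next, FANCA, whose H9 level was 1.90-fold under the next, and PRKDC, whose Mac1 level was 1.93-fold over the next. Since the rule reads these levels, the values below are a description without a test.

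MGMT (ENSG00000170430, chr10:129467184-129768007, plus strand, GRCh38) encodes the methyltransferase that lifts alkyl groups off guanine in 1 step. Its control libraries held 0, 0.0368 and 0.0393 CPM in MyLa, from 0, 1 and 1 counts. The 2 counts of MyLa correspond to 0.0249 CPM with an exact 95% Poisson interval of 0.00301 to 0.0899, which covers counting error only, and 3 counts over these libraries would be 0.0373 CPM. H9 was next, with 4.78 and 4.27 CPM, so that H9 was 178-fold over MyLa. The remaining order was SUP-T1 (mean 17.9 CPM), Mac1 (22.4), MOLT4 (42.1), CCRF-CEM (48.2) and THP6 (49.0). CCRF-CEM libraries (48.0 to 48.4 CPM) lay inside the range of THP6 libraries (47.7 to 50.4 CPM), so those neighbours did not separate. The gap between H9 and MyLa was also there in knockdown libraries, at 23.7-fold. In bulk RNA, fewer expressing cells and less RNA per cell cannot be told apart.

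**Figure D2:**
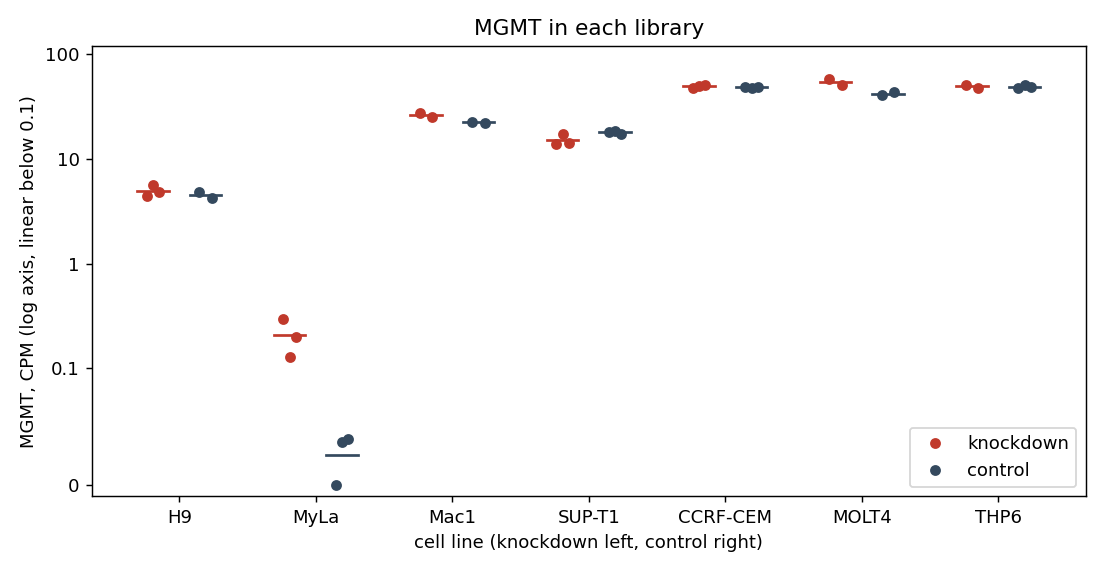
MGMT in CPM in each library by line, with knockdown libraries left of control libraries, points for libraries and bars for group means; the axis is logarithmic and linear below 0.1. MyLa libraries lie between 0 and 0.297 CPM and all other libraries at 4.27 CPM or more.

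The stretches just before the gene starts of MGMT, ATR and BLM, the single-line members with an entry in the promoter table, are shown, since MGMT is known as a gene with a CpG-rich promoter. They are from RefSeq on GRCh38.p14, 5′ to 3′ on the gene's strand, and end where the GENCODE 29 gene begins. Capitals mark CG dinucleotides. The MGMT stretch is chr10:129466991-129467183 (plus strand), with 28 CG in 193 bases. The ATR stretch is chr3:142578827-142578983 (minus strand), with 19 CG in 157 bases, and the BLM stretch is chr15:90717096-90717326 (plus strand), with 17 CG in 231 bases.
MGMT: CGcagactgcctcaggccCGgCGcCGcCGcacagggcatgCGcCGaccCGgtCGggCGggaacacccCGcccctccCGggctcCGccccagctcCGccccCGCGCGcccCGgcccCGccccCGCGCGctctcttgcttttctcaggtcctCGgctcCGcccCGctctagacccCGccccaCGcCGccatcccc
ATR: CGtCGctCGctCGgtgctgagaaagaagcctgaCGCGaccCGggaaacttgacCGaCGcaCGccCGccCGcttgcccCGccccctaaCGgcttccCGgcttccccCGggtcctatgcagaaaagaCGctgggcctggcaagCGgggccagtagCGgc
BLM: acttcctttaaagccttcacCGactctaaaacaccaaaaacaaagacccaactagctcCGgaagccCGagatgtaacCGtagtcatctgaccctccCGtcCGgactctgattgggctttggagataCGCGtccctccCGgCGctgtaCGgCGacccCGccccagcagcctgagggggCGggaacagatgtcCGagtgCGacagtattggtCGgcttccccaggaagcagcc
The full promoter window of MGMT, of 250 bases before and 50 after the RefSeq start, held 45 CG, more than 96.5% of the 35116 windows in the table, beside 34 CG for ATR and 27 for BLM. Windows were there for 36 of the 42 members (54 windows), with a median of 26 CG, beside 14 over all windows. DNA methylation was not analysed here. The E2F-type words TTTCGCGC and TTTGGCGC, searched on both strands, were each in 2 of the 54 windows (EXO1 and MSH3 for the first, MSH3 and XRCC6 for the second), beside 0.52% and 0.65% of all windows. The GATA-type word AGATAA was in 2 windows (BRCA1 and EXO1) and TGATAA in 1 (TP53BP1), beside 10.33% and 7.53% of all windows.

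ATR (chr3:142449235-142578826, minus strand), the kinase that answers stalled replication forks, was low in THP6. Its control libraries had 14.4, 12.9 and 13.3 CPM in THP6, against 35.3 and 37.8 CPM in MOLT4, the next-lowest line, a 2.7-fold gap. The highest level was 68.6 and 65.4 CPM in H9, just over Mac1 with 63.7 and 60.1 CPM. FANCI (chr15:89243949-89317261, plus strand), the partner of FANCD2 in the complex that marks crosslinked DNA, was low in CCRF-CEM, with 59.8, 53.4 and 63.1 CPM, against 150, 142 and 155 CPM in MyLa, the next-lowest line. That gap was 2.54-fold. BLM (chr15:90717327-90816165, plus strand), the helicase missing in Bloom syndrome, was high in H9, with 130 and 136 CPM, against 63.0, 63.7 and 60.6 CPM in SUP-T1, a 2.14-fold gap. In each of these cases no library of the 1 line overlapped a library of the line next to it. With knockdown libraries in place of controls the gaps were 2.20-fold for ATR, 2.06-fold for FANCI and 1.94-fold for BLM.

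**Figure D3:**
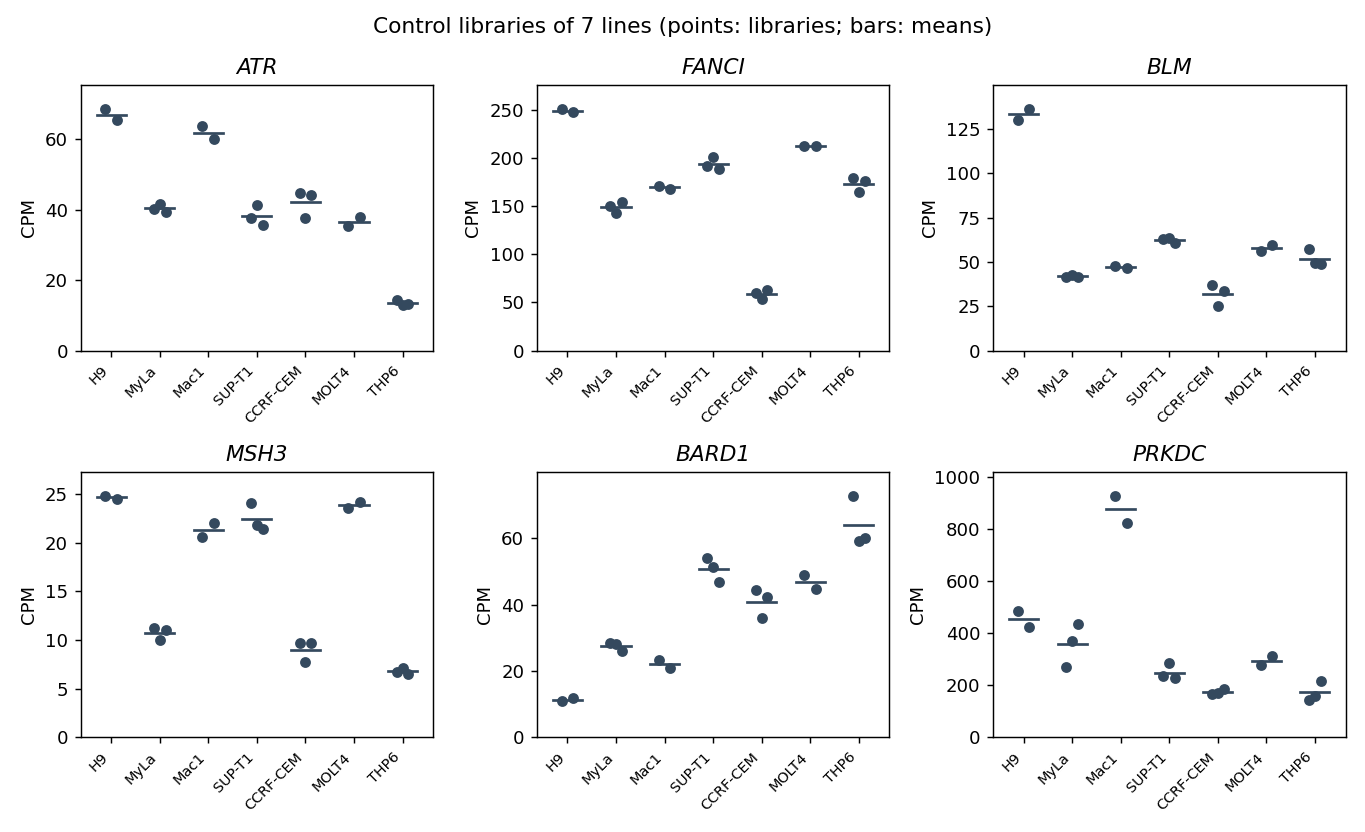
CPM of 6 members in each control library of the 7 lines, with points for libraries and bars for line means. ATR is low in THP6 (mean 13.5), FANCI in CCRF-CEM (58.8) and BARD1 in H9 (11.3), while BLM is high in H9 (133) and PRKDC in Mac1 (877).

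Every mismatch repair member was present in every line. MSH3 formed a higher and a lower set of lines. Its means were 24.7 CPM in H9, 23.9 in MOLT4, 22.4 in SUP-T1 and 21.3 in Mac1, and 10.8 in MyLa, 9.02 in CCRF-CEM and 6.79 in THP6. The lowest control library of the first 4 lines had 20.6 CPM (Mac1) and the highest of the last 3 had 11.2 CPM (MyLa). THP6 was lowest in the contrast of its controls with those of the other 6 lines, with a log2 difference of -1.35 (SE 0.0945, edgeR adjusted p = 2.01e-13). THP6 was picked as the lowest line from these same values, so this p-value is a description and not independent evidence. In that contrast 56.7% of all genes were called.

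MSH6 ran from 105 ± 3.78 CPM in MOLT4 (SD, n = 2) to 266 ± 8.92 in SUP-T1 (n = 3). MOLT4 was below the other lines by 0.81 on the log2 scale (log2 difference -0.81, SE 0.0597, edgeR adjusted p = 6.31e-13). PMS2 was likewise lowest in MOLT4, with 18.1 and 16.5 CPM (log2 difference from the other lines -1.08, SE 0.0700, edgeR adjusted p = 3.68e-14). Its highest level was 52.6 CPM in THP6. For MSH6 and PMS2 alike, MOLT4 was picked as the lowest line from these same values, so their p-values are a description. In the MOLT4 contrast 56% of all genes were called. PMS2 has near-identical pseudogene copies, so its counts are uncertain. EXO1 was lowest in H9, with 26.5 and 26.7 CPM, against 42.5 and 40.0 CPM in MOLT4, the next-lowest line. Its means of 108 CPM in MyLa and 107 in Mac1 did not separate.

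The lines differed in many members, as they did in most genes. In the contrast of 1 line's controls with the controls of the other 6 lines, 34 members were called in H9 at an edgeR adjusted p under 0.05, beside 59.3% of all 21138 genes tested. MyLa had 33 (61.9% of all genes), Mac1 had 27 (61.4%), SUP-T1 had 29 (59.2%), CCRF-CEM had 29 (55.5%), MOLT4 had 29 (56%) and THP6 had 31 (56.7%). As shares of the 42 members these are 64.3% in Mac1 to 81.0% in H9. H9 had 25 members higher and 9 lower, and CCRF-CEM 11 higher and 18 lower. Called differences over 2-fold were fewer, at 1 member in MyLa and in SUP-T1 to 7 in H9. The share of all genes over 2-fold was not counted, so these counts are a description.

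Between the classes no member was called. Summed control counts of the 3 CTCL lines were compared with those of the 4 T-ALL lines, and edgeR called 0 of 42 members and 52 of 18565 genes (0.28%), with 4 members at an unadjusted p under 0.05, beside 13.8% of all genes. These were PRKDC (log2 difference 1.37, SE 0.373, edgeR adjusted p = 0.196), RAD50 (0.88, SE 0.358), PARP1 (0.68, SE 0.272) and BARD1 (-1.29, SE 0.371, edgeR adjusted p = 0.212). DESeq2 called 1 member, BARD1, with an adjusted p of 0.029, and 1479 genes in all. BARD1, the partner of BRCA1, had line means of 11.3, 27.5 and 22.2 CPM in H9, MyLa and Mac1, and of 50.6, 40.8, 46.7 and 64.0 CPM in SUP-T1, CCRF-CEM, MOLT4 and THP6. The highest CTCL control library had 28.3 CPM (MyLa) and the lowest T-ALL control library 35.8 CPM (CCRF-CEM). PRKDC, which encodes DNA-PKcs, had 929 and 825 CPM in Mac1 controls, and its other controls ran from 144 CPM in THP6 to 486 CPM in H9. In knockdown libraries PRKDC had 491 and 630 CPM in Mac1 and 498, 284 and 626 CPM in H9, so there those lines overlapped.

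The knockdown question was asked line by line: which members moved with the hairpin. Most did not pass the test. Of 294 pairs of a member and a line 22 were called, 12 higher and 10 lower, and 25 members were called in no line. The absolute log2 fold change had a median of 0.111 and was under 0.3 in 90.1% of pairs. In H9 edgeR called 0 members, beside 1.82% of all genes. There 1 member (ERCC2, log2 fold change 0.18, edgeR adjusted p = 0.22) had an unadjusted p under 0.05, and DESeq2 also called 0. MyLa had 1 called member (1.88% of all genes), Mac1 had 5 (7.89%), SUP-T1 had 6 (16.7%), CCRF-CEM had 2 (8.44%), MOLT4 had 6 (19.2%) and THP6 had 2 (7.4%).

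**Figure D4:**
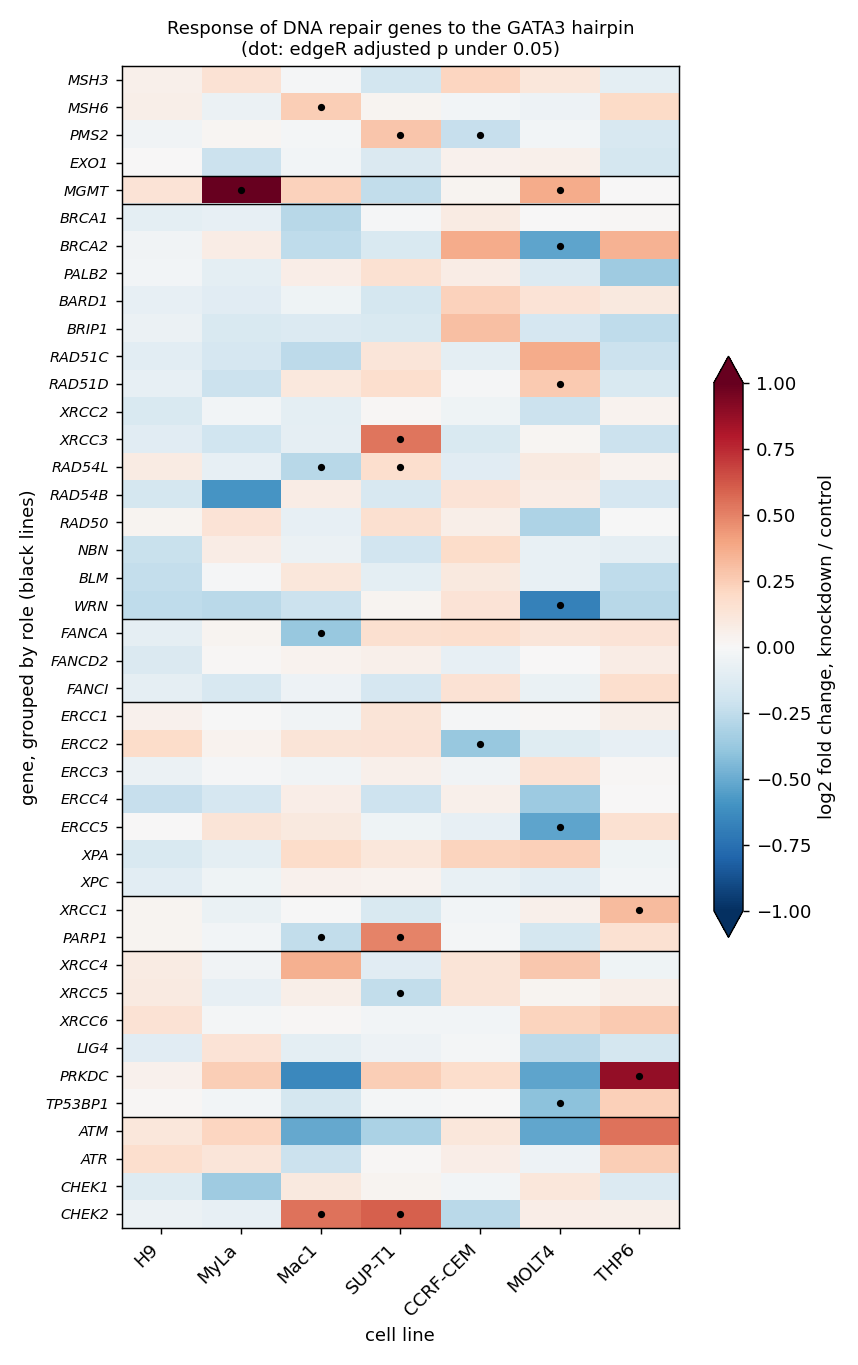
Log2 fold change of each member, knockdown over control, in each line, with rows grouped by role, a dot where the edgeR adjusted p was under 0.05, and colours ending at -1 and 1. MGMT in MyLa (2.86) lies past the end of the scale, the 22 dots are spread over 6 lines, and H9 has none.

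Mismatch repair members were called in 3 lines. In Mac1 MSH6 had 184 and 178 CPM in knockdown libraries, against 154 and 152 CPM in controls (log2 fold change 0.24, SE 0.0738, edgeR adjusted p = 0.0389). The call was lost without any 1 of the 4 libraries, with a log2 fold change of 0.25 to 0.29 and adjusted p of 0.0545 to 0.148. PMS2 moved in opposite directions relative to the labels in a pair of lines, in which GATA3 did so too. In SUP-T1 it had 52.0, 55.9 and 51.8 CPM in libraries labelled knockdown, against 43.3, 44.6 and 44.0 CPM in libraries labelled control (log2 fold change 0.28, SE 0.0673, edgeR adjusted p = 0.00378). In CCRF-CEM it had 26.5, 25.2 and 26.1 CPM in knockdown libraries, against 29.5, 30.8 and 30.8 CPM in controls (-0.23, SE 0.0696, edgeR adjusted p = 0.0336). In neither line did the groups overlap. Since PMS2 was picked for its calls in opposite directions, the difference of the responses, 0.51 (SE 0.0968), is a description and not independent evidence. The CCRF-CEM call was kept without control 1, and without any 1 of the other 5 libraries the adjusted p was 0.0624 to 0.182. MSH3 and EXO1 were called in no line.

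MGMT was called in MyLa and in MOLT4. In MyLa the knockdown libraries had 7, 3 and 5 counts (0.297, 0.129 and 0.200 CPM), against 0, 1 and 1 counts in controls. The ratio of 15 counts to 2, after scaling for depth, was 8.40 with a 95% counting interval of 1.95 to 75.7. The fitted log2 fold change of 2.86 depends on the prior count (edgeR adjusted p = 0.0268), and no member was called in MyLa without any 1 of its 3 controls or without knockdown 1 or 3. DESeq2 did not call it. The knockdown libraries stayed at 0.209 CPM on average, under the 4.53 CPM of the next-lowest control group, H9. In MOLT4 MGMT had 58.3 and 50.7 CPM in knockdown libraries, against 40.7 and 43.6 CPM in controls (log2 fold change 0.37, SE 0.105, edgeR adjusted p = 0.0116). Without control 1 the adjusted p was 0.142 and without knockdown 1 it was 0.229.

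Homologous recombination and helicase genes gave 6 calls in 3 lines among 15 members. The RecQ helicase gene WRN had the largest loss of the called members. It had 27.8 and 34.3 CPM in MOLT4 knockdown libraries, against 51.0 and 47.9 CPM in controls (log2 fold change -0.67, SE 0.139, edgeR adjusted p = 7.34e-04). BRCA2 was also lower in MOLT4, with 30.7 and 33.3 CPM in knockdown libraries, against 46.9 and 45.2 CPM in controls (-0.53, SE 0.162, edgeR adjusted p = 0.0204). The recombination gene RAD51D was higher there, by 0.26 on the log2 scale (SE 0.0834, edgeR adjusted p = 0.0247). So genes of the same route moved both ways in MOLT4. Without any 1 of the 4 MOLT4 libraries the adjusted p was 0.060 to 0.16 for BRCA2 and 0.0533 to 0.196 for RAD51D, while WRN was called each time. In SUP-T1 XRCC3, another recombination gene, had 73.4, 80.9 and 80.6 CPM in libraries labelled knockdown, against 51.6, 54.6 and 56.0 CPM in libraries labelled control (0.53, SE 0.0719, edgeR adjusted p = 2.38e-06). Of the XRCC3 exon bases 76.7% overlap exons of KLC1 on the other strand, and whether the authors counted by strand is unknown here, so the source of these reads is uncertain. The same holds in part for other called members with such overlaps: TP53BP1 (28.7%, TUBGCP4), RAD54L (25.1%, LRRC41), FANCA (23.6%, ZNF276), XRCC1 (17.5%) and MSH6 (16.2%, FBXO11). RAD54L, a motor protein that helps strand invasion, was higher in SUP-T1 libraries labelled knockdown (0.16, SE 0.0574, edgeR adjusted p = 0.0474) and lower in Mac1 knockdown libraries (-0.27, SE 0.0717, edgeR adjusted p = 0.0151). GATA3 also moved oppositely in those lines relative to the labels. The difference of the RAD54L responses, for a gene picked by its opposite calls, was 0.44 (SE 0.0918). Without any 1 library the adjusted p was 0.0595 to 0.212 in SUP-T1 and 0.0943 to 0.224 in Mac1.

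Of the crosslink and excision repair genes other than PARP1, 4 were called, each in 1 line. ERCC2, a helicase of TFIIH, fell in CCRF-CEM to 72.0, 70.4 and 71.7 CPM in knockdown libraries, against 88.0, 99.7 and 91.0 CPM in controls (log2 fold change -0.38, SE 0.0598, edgeR adjusted p = 5.94e-05). ERCC5, the nuclease that cuts on the 3′ side of a lesion, fell in MOLT4 to 64.1 and 60.4 CPM in knockdown libraries, against 88.4 and 90.7 CPM in controls (-0.52, SE 0.0837, edgeR adjusted p = 2.84e-05). FANCA, of the Fanconi anaemia core complex, was lower in Mac1, with 51.9 and 59.7 CPM in knockdown libraries, against 77.0 and 68.3 CPM in controls (-0.38, SE 0.116, edgeR adjusted p = 0.0394), and without any 1 of these 4 libraries the adjusted p was 0.0651 to 0.438. The scaffold gene XRCC1 was called higher in THP6 (0.32, SE 0.0970, edgeR adjusted p = 0.0421), but its groups overlapped, with 74.2 and 113 CPM in knockdown libraries and 75.2, 73.4 and 76.9 CPM in controls. Without THP6 knockdown 2 its log2 fold change was -0.017, and without any 1 control the adjusted p was 0.0835 to 0.129. Annotated exons of ERCC5 also overlap BIVM-ERCC5, a read-through gene on the same strand, so reads may be split between them. Other called members with exon overlaps on the same strand are RAD51D (RAD51L3-RFFL) and XRCC1 (L34079.1), and the same caution holds for them.

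PARP1 and CHEK2 gave calls in Mac1 and SUP-T1. PARP1, which detects strand breaks, had 683, 709 and 720 CPM in SUP-T1 libraries labelled knockdown, against 492, 509 and 497 CPM in libraries labelled control (log2 fold change 0.50, SE 0.0604, edgeR adjusted p = 4.54e-07). In Mac1 it had 837 and 849 CPM in knockdown libraries, against 980 and 1018 CPM in controls (-0.25, SE 0.0737, edgeR adjusted p = 0.037). No library of 1 arm reached the range of the other in either line, and the responses of this gene, also picked by its opposite calls, differed by 0.74 (SE 0.0953). CHEK2, the checkpoint kinase that ATM activates, was higher in both lines. It had 25.6, 28.9 and 21.8 CPM in SUP-T1 libraries labelled knockdown, against 16.4, 17.8 and 16.1 CPM in libraries labelled control (0.60, SE 0.0985, edgeR adjusted p = 4.59e-05). In Mac1 it had 20.9 and 18.7 CPM in knockdown libraries, against 13.5 and 13.8 CPM in controls (0.54, SE 0.123, edgeR adjusted p = 0.00479). GATA3 moved oppositely in these lines relative to the labels. The Mac1 calls other than CHEK2 were lost without any 1 of the 4 libraries, and CHEK2 was kept only without control 2 or knockdown 2. The folds kept their direction with 1 library left out. CHEK2 was then at 0.48 to 0.64, PARP1 at -0.19 to -0.25, RAD54L at -0.23 to -0.27 and FANCA at -0.26 to -0.46. In these fits, with 1 library in an arm, 0 members were called without control 1 or knockdown 1, and 1 without control 2 or knockdown 2.

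**Figure D5:**
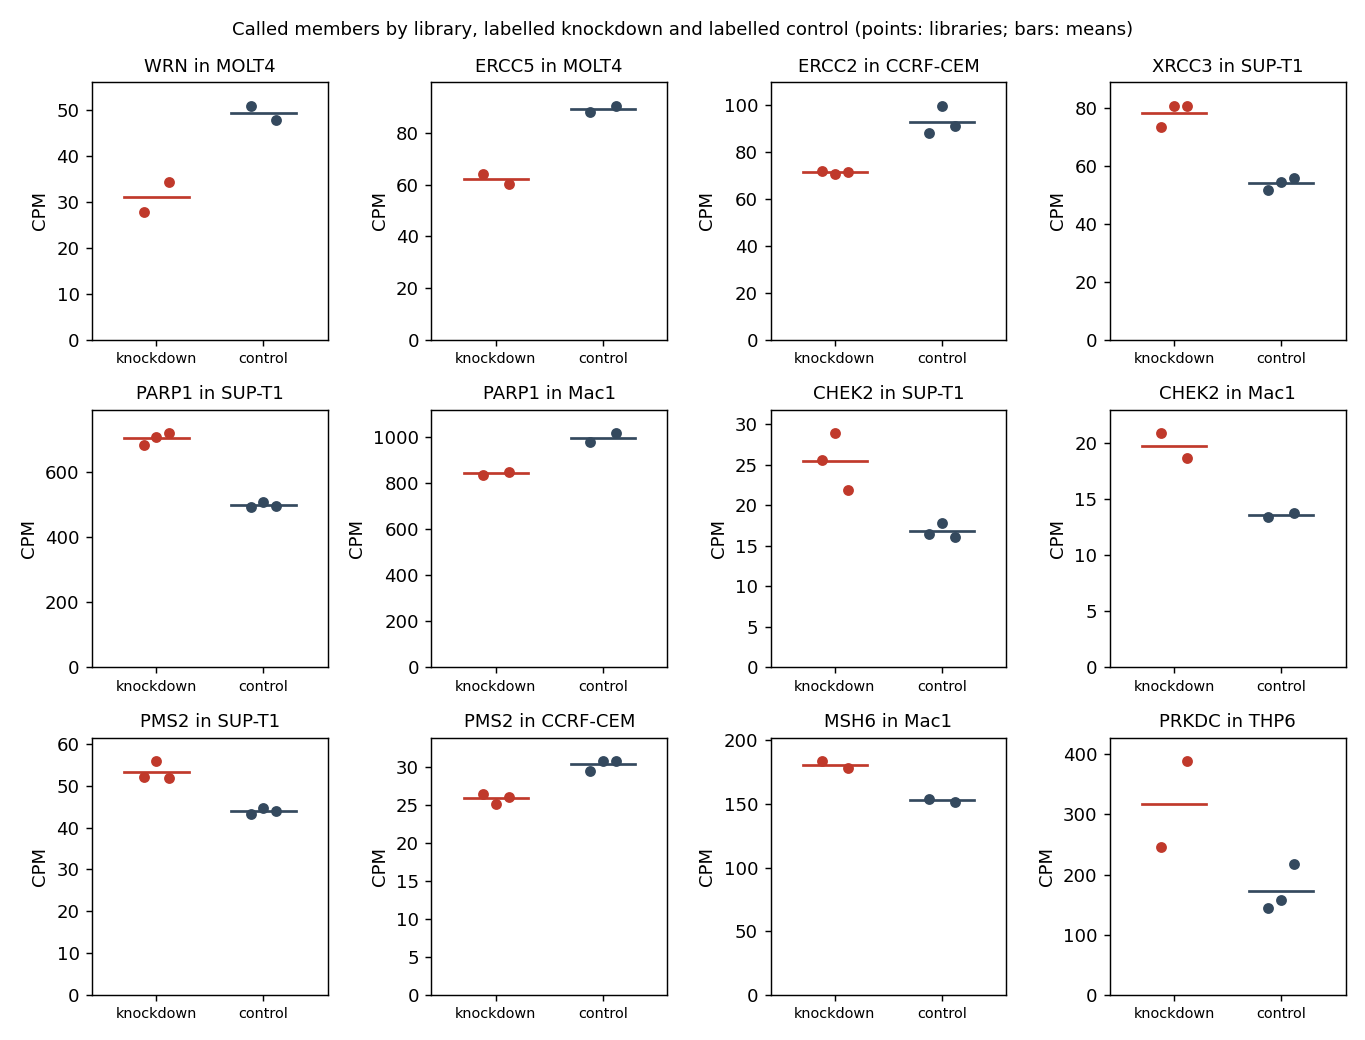
CPM of called members in each library of the named line, with knockdown libraries left of control libraries (as labelled in SUP-T1), points for libraries and bars for means. The arms do not overlap in any panel; in THP6 the PRKDC knockdown libraries are at 246 and 389 CPM and the controls at 144 to 217 CPM.

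Among end joining genes 3 were called, each in 1 line. PRKDC had 246 and 389 CPM in THP6 knockdown libraries, against 144, 157 and 217 CPM in controls (log2 fold change 0.88, SE 0.252, edgeR adjusted p = 0.0302). Without THP6 knockdown 2 the value was 0.51 (adjusted p = 0.64), and without control 1 or 2 it was 0.76 (adjusted p = 0.113) or 0.82 (adjusted p = 0.104). TP53BP1, which shields broken ends from resection, was lower in MOLT4, with 71.1 and 76.7 CPM in knockdown libraries, against 95.3 and 101 CPM in controls (-0.41, SE 0.120, edgeR adjusted p = 0.0149), with an adjusted p of 0.106 without control 2 and 0.139 without knockdown 1. XRCC5, which encodes Ku80, was lower in SUP-T1 libraries labelled knockdown, with 579, 627 and 536 CPM, against 666, 704 and 695 CPM in libraries labelled control (-0.25, SE 0.0772, edgeR adjusted p = 0.0262). Its adjusted p was 0.0562 to 0.129 without control 2, control 3, knockdown 1 or knockdown 3. The count of called members in THP6 was set by which of its 2 knockdown libraries stood for the arm. The count over all genes tested moved the same way, so the shift was not particular to the members. In MOLT4 the count of called members also depended on the library left out, with WRN and ERCC5 called in each of these fits.

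Annotated exon length went along with the log2 fold change in some lines. This length merges the exons of all annotated transcripts of a gene and can exceed that of any single transcript. Over the 42 members the log2 fold change in MOLT4 had a Spearman correlation of -0.47 with annotated exon length, beside -0.28 over 11602 genes at a mean of at least 5 CPM. In Mac1 it was -0.40 (-0.05 over genes), and in THP6 0.36 (0.23 over genes). These are descriptions across genes of the same libraries, and genes are not independent. The 7 members with over 10 kb of exon (MSH6, BRCA2, RAD51D, PRKDC, TP53BP1, ATM and ATR) had a median log2 fold change of -0.41 in MOLT4, beside 0.01 for the other 35, but they did not all go 1 way: BRCA2 and TP53BP1 were called lower and RAD51D higher, and MSH6 (-0.05) and ATR (-0.05) were not called. In THP6 the median of these 7 was 0.24, beside -0.01. Among the 11602 genes, those over 10 kb had a median of -0.17 in MOLT4, beside 0.02 for the rest. In THP6 those medians were 0.14 and -0.03. ATM, which is longest, had 25.0 CPM in knockdown and 35.8 CPM in control libraries of MOLT4 (-0.52, edgeR adjusted p = 0.0588), and 31.7 and 21.8 CPM in THP6 (0.54, edgeR adjusted p = 0.0572). The part of length in the calls of BRCA2 and TP53BP1 in MOLT4 and of PRKDC in THP6 was not tested.

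Across lines no member was called for a common response. With each line as 1 unit, edgeR called 0 of 42 members for the mean response over 7 lines, beside 0 of 17382 genes (0%). GATA3 was thus not called either, and SUP-T1, where it went the other way, entered as labelled. This test therefore cannot show that a common response was absent. There 1 member, WRN, had an unadjusted p under 0.05 (log2 fold change -0.22, SE 0.0910, edgeR adjusted p = 1.00), beside 2.58% of genes, and DESeq2 called 0 members and 1 gene in all. The difference of the response between the classes gave 0 members called (0% of genes), 0 at an unadjusted p under 0.05, and 0 members with DESeq2. The response did differ between single lines for 15 of 42 members (35.7%), beside 35.2% of all genes. Without SUP-T1 it did so for 13 members (31.0%), beside 25% of all genes. That test was chosen after values were seen. Its members included MGMT, BRCA2, WRN, ERCC2, ERCC5, PARP1, PRKDC, ATM and CHEK2, each called with and without SUP-T1, and PMS2 and XRCC3, which were called only with it.

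Other repair genes of the same routes were counted from 9 lists with 142 genes in all, which hold no member. In MOLT4 27 of the 142 were called higher and 5 lower (22.5%), with a median log2 fold change of 0.136, beside 0 for all genes. In SUP-T1 there were 14 each way (19.7%), in THP6 9 higher and 2 lower (7.75%), in CCRF-CEM 2 and 6 (5.63%), in Mac1 5 and 0 (3.52%), in MyLa 0 and 1 and in H9 0 and 0. The shares of all genes called were 19.2% in MOLT4, 16.7% in SUP-T1, 7.4% in THP6, 8.44% in CCRF-CEM and 7.89% in Mac1. Without THP6 knockdown 2 the THP6 counts were 1 higher and 0 lower.

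In MOLT4 most of the called genes of these lists were higher, in a line where 19.2% of all genes were called. Of 17 other mismatch repair genes 4 were higher and 0 lower, among them the sliding clamp gene PCNA, with 941 CPM in knockdown and 718 CPM in control libraries (log2 fold change 0.39, SE 0.114, edgeR adjusted p = 0.0143), and the single-strand binding protein gene RPA1 (0.36, SE 0.0691). Of 29 other recombination genes 6 were higher and 1 lower, with the nuclease subunit gene EME1 at 0.46 (SE 0.0882). Of 14 other Fanconi anaemia genes 4 were higher, with FANCG at 103 CPM in knockdown and 69.0 CPM in control libraries (0.58, SE 0.0937, edgeR adjusted p = 3.10e-05), and 1 was lower. Of 17 other nucleotide excision repair genes 2 were higher and 0 lower, of 22 other base excision genes 3 and 1, of 13 other end joining genes 3 and 2, of 16 other checkpoint genes 4 and 0, and of 12 translesion genes 1 and 0. The damage-binding gene DDB2 (0.64, SE 0.0873) and the histone gene H2AFX, which encodes H2AX (0.69, SE 0.0883), were also higher. The end joining polymerase gene POLM fell most, to 29.9 CPM in knockdown libraries, against 71.0 CPM in controls (-1.25, SE 0.0982, edgeR adjusted p = 1.04e-10).

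POLM was lower in CCRF-CEM too, with 23.7 CPM in knockdown and 32.1 CPM in control libraries (-0.44, SE 0.0818), and higher in SUP-T1 libraries labelled knockdown, with 27.7 CPM, against 20.2 CPM in libraries labelled control (0.46, SE 0.0819). FANCE showed the same pair of directions, at -0.35 in CCRF-CEM (SE 0.0718) and 0.61 in SUP-T1 (SE 0.0752). GATA3 had this pair of directions too. In CCRF-CEM the nuclease gene MUS81 (-0.27, SE 0.0628) and the polymerase gene POLL (-0.42, SE 0.103) were lower and H2AFX was higher (0.48, SE 0.0719). In SUP-T1 the glycosylase gene NEIL2 (0.88, SE 0.140) was higher, and MSH5, a meiotic relative of the mismatch sensors (-0.53, SE 0.120), was lower. In Mac1 the glycosylase gene MBD4 (0.47, SE 0.126) and the ubiquitin ligase gene HLTF (0.53, SE 0.138) were higher. In THP6 the ligase gene LIG1 (0.42, SE 0.106) and the translesion polymerase gene POLH (0.56, SE 0.131) were called higher. In MyLa the TFIIH gene GTF2H4 was lower (-0.27, SE 0.0657).

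Many repair genes are expressed in S phase, and cell cycle genes were counted beside them. Of 36 S phase genes 15 were higher and 1 lower in MOLT4, 4 and 1 in CCRF-CEM, 5 and 0 in THP6, 3 and 3 in SUP-T1, 1 and 0 in Mac1, 0 and 1 in H9 and 0 and 0 in MyLa. The summed level of that list was 7771 and 7848 CPM in MOLT4 knockdown libraries, against 6937 and 7073 CPM in controls. Of 30 mitosis genes 13 were higher and 0 lower in CCRF-CEM, 11 and 1 in MOLT4, 17 and 0 in THP6, and 1 and 9 in SUP-T1. Without THP6 knockdown 2 no gene of either list was called in THP6. The part of the cell cycle in the members' responses was not tested.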

How the data were processed

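The members, lists and tests were chosen with earlier results of these data known. Polyadenylated RNA of 36 libraries was measured. The deposited values are expected counts per gene, all whole, which the authors made with cutadapt 2.3, STAR 2.7.8a and RSEM 1.3.3 on GRCh38, per the submitters' processing notes. Which annotation release and strand setting were used is not given in the sources. Coordinates and exon lengths come from GENCODE 29, which holds 96.5% of the identifiers. Of 60628 rows 5 named no human gene and were left out. Groups follow the titles, because running numbers follow SUP-T in the cell line field of that line.

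With edgeR 4.0.16 under R 4.3.3, 1 model of 14 group means was fitted to the 36 libraries, using TMM scaling, filterByExpr (21138 genes) and quasi-likelihood F tests, with Benjamini-Hochberg adjustment over all genes and a threshold of 0.05. Tests over lines used counts summed per line and arm. Alternatives used DESeq2 1.42.0, limma-voom (limma 3.58.1), DESeq2 size factors, other filters, a separate fit of each line, a replicate block, a log2 fold change of at least 1 and leaving out each library. Where that left 1 library in an arm, the lone library was assumed to vary like the others. Figures used Python 3.11.15 and matplotlib 3.10.9. The tests were checked on simulated data.

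Replicate numbers were checked as pairs by correlating the deviations of same-numbered libraries from their group means. The 17 correlations ran from -0.231 to 0.364. All 3 pairs were over 0.1 in MyLa (0.254 to 0.301), where the blocked fit kept the call of MGMT. The H9 pairs were over 0.1 too (0.162 and 0.364). In SUP-T1 and CCRF-CEM, which also have 3 pairs, this was not so. Named members are those the criteria on single lines took, MSH3, MSH6, PMS2, EXO1 and MGMT, and every member called in a line. From other lists, genes with the lowest adjusted p in a line were named.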

Additional observations from a re-analysis of the deposited data

Results flagged for a closer look

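Some lines stood apart from the rest in the level or response of a member, by the gap to the nearest line over the whole range of lines. Of 84 sets of 4 or 7 lines looked at, 10 were picked out. The nominal rate of about 1 in 20 was not checked on these data. The share over all genes was not counted, so the cases picked out are a description. By level among the 4 T-ALL lines these were MGMT low in SUP-T1 (17.9 CPM), FANCI low in CCRF-CEM (58.8 CPM), ATR low in THP6 (13.5 CPM), LIG4, the end joining ligase gene, low in CCRF-CEM (8.47 CPM), and XPC, which recognises helix-distorting lesions, high in THP6 (76.0 CPM). By log2 fold change among the 7 lines these were MGMT in MyLa (2.86), BRIP1, a helicase gene of the BRCA1 complex, in CCRF-CEM (0.30), XRCC3 in SUP-T1 (0.53), ERCC5 in MOLT4 (-0.52) and XRCC1 in THP6 (0.32). Members were also picked because they were called in opposite directions relative to the labels, in lines where GATA3 moved oppositely too. Given as a description, the difference of response was 0.51 for PMS2 in SUP-T1 minus CCRF-CEM. In SUP-T1 minus Mac1 it was 0.44 for RAD54L and 0.74 for PARP1. No group had 4 libraries, so single libraries within a group were not screened this way.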

How the results depend on the processing

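Of the alternatives to the 22 called responses, 175 kept direction and side of the threshold, 85 kept direction only and 1 turned: XRCC1 in THP6, at -0.017 without THP6 knockdown 2 and 0.591 without knockdown 1. XRCC3, PARP1 and CHEK2 in SUP-T1, ERCC2 in CCRF-CEM, and WRN and ERCC5 in MOLT4 passed under every alternative run except the minimum log2 fold change of 1. The counts of called members moved as follows, and the cause was not tested. With no filter there were 3 in MyLa, 3 in Mac1 and 1 in CCRF-CEM, beside 535, 1952 and 1665 of 37428 genes. With 10 counts in 2 libraries there were 3 in Mac1 and 1 in THP6, beside 1812 and 1577 of 21366 genes. A separate fit of each line gave 2 in MyLa, 14 in MOLT4 and 0 in THP6. Over all genes it called 1374 of 15549 in MyLa, 6797 of 16486 in MOLT4 and 0 of 15391 in THP6. DESeq2 gave 10 in MOLT4 and 6 in THP6, beside 4279 and 2091 of 21138 genes, and 1 in the control level by class. In THP6 DESeq2 size factors gave 4, beside 1606 of all genes, and limma-voom gave 1, beside 1447 of all genes. A log2 fold change of at least 1 left 0 in Mac1, SUP-T1, CCRF-CEM, MOLT4 and THP6. The replicate block gave 2 in Mac1, 1 in CCRF-CEM and 1 in THP6, beside 1475, 1431 and 466 of 21083 genes. Its numbers are not known to pair libraries except by the check in MyLa. There every number was best matched to itself, which was not so in H9, SUP-T1 or CCRF-CEM. Leaving out 1 library gave 0 to 1 in MyLa, 4 to 6 in SUP-T1 and 1 to 2 in CCRF-CEM. Over all genes the counts were 196 to 249 in MyLa, 2572 to 2963 in SUP-T1 and 1083 to 1547 in CCRF-CEM. In Mac1, MOLT4 and THP6 the counts also moved, over all genes as over members, most widely in THP6. With knockdown libraries in place of controls the gaps between lines were 1.94-fold for BLM, 2.06-fold for FANCI and 2.20-fold for ATR, and the H9 to MyLa gap of MGMT was 119-fold to 246-fold without any 1 control. Depth limits MGMT in MyLa, at 15 and 2 counts.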
